A study of Mus musculus with 7 samples.

Results

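Ribosomal protein genes, which encode the protein parts of the cytosolic and the mitochondrial ribosome, are described here in mouse regulatory T (Treg) cells with and without Hpgd, the enzyme that inactivates prostaglandins by oxidation. Members were chosen by gene symbol (Rpl and Rps numbers with Rplp0, Rplp1, Rplp2 and Rpsa for the cytosolic class, Mrpl and Mrps numbers for the mitochondrial class). They made up 161 of the 15815 genes in the table. The cytosolic class held 83 genes, 50 of the large and 33 of the small subunit. The mitochondrial class held 78 genes, 49 of the large and 29 of the small subunit. In both classes the subunit was taken from the symbol alone (Rpl and Mrpl large, Rps and Mrps small).

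The 3 KO libraries came from Hpgd-deficient and the 4 WT libraries from WT Treg cells, all marked by YFP. The labels give every library the same line (Hpgd fl; Foxp3-YFP-Cre, in which Foxp3 drives Cre and YFP in Treg cells) and the same strain, C57BL/6JRcc. They do not say which alleles the WT cells carried. The marked cells were injected into Rag-/- mice, which have no T or B cells of their own, together with naive T cells and unmarked Treg cells that were both WT. YFP+ cells were sorted 8 weeks later from the mLN (mesenteric lymph nodes) and sequenced after SmartSeq2 amplification of full-length cDNA. No label says that each library came from its own host, so a p-value here sets a difference against the spread of these samples only, which may be technical. The age of the hosts is not given in the labels.

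Reads behind the table numbered between 4135733 (KO 3) and 10622507 (WT 4) per library, and genes with a read between 13557 (KO 3) and 15201 (KO 2). Levels are normalized counts, which are reads divided by a size factor of the library. Hpgd had 0.759, 2.42 and 5.52 normalized counts in KO 1 to 3 and 18.7, 9.96, 10.2 and 13.4 in WT 1 to 4, so the groups did not overlap and followed the labels. The 7 Treg markers (Cd3e, Cd4, Foxp3, Il2ra, Ctla4, Ikzf2, Tnfrsf18) were all measured and summed to between 31932 and 34399 in KO and between 29865 and 35244 in WT. WT 2 stood apart from the rest in both classes of ribosomal protein genes. Most values that moved by over 1.5 times or changed sign without it are given both ways.

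The cytosolic ribosome makes nearly all proteins of the cell. Its protein genes are among the most abundant transcripts in growing lymphocytes, and their mRNAs begin with a pyrimidine run, the terminal oligopyrimidine motif, through which mTOR signalling and Larp1 set their translation. The mitochondrial ribosome is a separate machine, built from other nuclear-encoded proteins, that makes the few respiratory chain subunits encoded in mitochondrial DNA.

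The region around the annotated start is shown for the 2 members of each class with the smallest p-values among those with lower estimates in KO and 1 listed start, because the pyrimidine run is the feature by which the cytosolic class is known. Each sequence runs from 70 bases before the start through the first 30 bases from it, 5′ to 3′ on the gene's strand, from the RefSeq promoter table (GRCm38.p6). Capitals mark the longest run of C and T that overlaps the 20 bases on either side of the start.
Rplp2: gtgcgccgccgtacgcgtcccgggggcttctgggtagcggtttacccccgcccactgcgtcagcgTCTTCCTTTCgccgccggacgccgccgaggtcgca
Rpl37: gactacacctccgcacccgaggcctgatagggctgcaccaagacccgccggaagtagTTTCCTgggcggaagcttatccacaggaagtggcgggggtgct
Rps25: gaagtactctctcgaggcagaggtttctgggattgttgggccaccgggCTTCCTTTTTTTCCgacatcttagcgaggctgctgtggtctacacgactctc
Rps28: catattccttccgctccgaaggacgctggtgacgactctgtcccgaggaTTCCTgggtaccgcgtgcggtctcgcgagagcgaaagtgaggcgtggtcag
Mrpl52: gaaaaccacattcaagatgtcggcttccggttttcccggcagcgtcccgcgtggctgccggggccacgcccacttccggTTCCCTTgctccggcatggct
Mrpl37: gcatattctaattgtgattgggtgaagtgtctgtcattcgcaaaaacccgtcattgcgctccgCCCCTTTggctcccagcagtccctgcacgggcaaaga
Mrps21: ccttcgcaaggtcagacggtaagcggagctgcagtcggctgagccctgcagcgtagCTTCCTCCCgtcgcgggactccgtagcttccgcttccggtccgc
Mrps27: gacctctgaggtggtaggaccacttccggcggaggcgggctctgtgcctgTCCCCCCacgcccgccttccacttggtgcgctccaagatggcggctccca
These lie at chr7:141447581-141447680 (plus strand), chr15:5116543-5116642 (plus), chr9:44407644-44407743 (plus), chr17:33824533-33824632 (minus), chr14:54426839-54426938 (plus), chr4:107066837-107066936 (minus), chr3:95871485-95871584 (minus) and chr13:99344716-99344815 (plus). The Rplp2 run of 10 pyrimidines began 5 bases before the annotated start and the Rps25 run of 14 began 22 bases before it, while Rps28 had a run of 5. Promoters were found for 62 of the 83 cytosolic and 69 of the 78 mitochondrial genes, some with more than 1 start. A run of at least 8 pyrimidines was present in 36 of 73 cytosolic promoters (49.3%) and in 18 of 75 mitochondrial promoters (24.0%). Over all 32851 promoters of the table the share was 21.2%. By subunit it was 54.5% for the cytosolic large, 41.4% for the cytosolic small, 22.9% for the mitochondrial large and 25.9% for the mitochondrial small subunit. A run is a match of letters in this window, not a shown motif.

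The cytosolic genes were far more abundant than the mitochondrial ones in every library. The median level of a tested member was 3729 normalized counts in the cytosolic class and 344 in the mitochondrial class. Per kilobase of transcript, by 1 representative transcript per gene, the medians were 4584 and 227 normalized counts, a ratio of 20.2, and the median over all tested genes was 78.0. Within the cytosolic class the median level per kilobase was 4283 in the large and 6203 in the small subunit, against 227 in both mitochondrial subunits. Members were spread over 19 chromosomes in the cytosolic and 17 in the mitochondrial class, with 4 cytosolic genes (Rpl10, Rpl36a, Rpl39 and Rps4x) and no mitochondrial gene on X.

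Cytosolic ribosomal protein genes took 4.61%, 4.54% and 4.49% of all reads in KO 1 to 3 and 5.65%, 7.76%, 4.61% and 4.58% in WT 1 to 4. The KO libraries averaged 4.55% ± 0.058 (SD, n = 3), and the WT libraries averaged 5.65% ± 1.49 (SD, n = 4) and reached down into the KO range. Without WT 2 the WT libraries averaged 4.95% ± 0.61 (SD). The group means differed by -1.10 percentage points with WT 2 and by -0.40 without it. The small subunit genes alone took 2.094%, 2.089% and 2.088% in KO 1 to 3 and 2.61%, 3.59%, 2.18% and 2.15% in WT 1 to 4. These small subunit shares did not overlap between the groups. The mean log2(normalized count + 1) of the same class did overlap, with 11.96 in KO 3 and 11.93 in WT 3. The large subunit genes took 2.51%, 2.45% and 2.41% in KO 1 to 3 and 3.04%, 4.17%, 2.43% and 2.44% in WT 1 to 4, and these overlapped. In bulk RNA, fewer cells of a type and less RNA per cell cannot be told apart.

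Mitochondrial ribosomal protein genes took 0.368%, 0.395% and 0.398% of reads in KO 1 to 3 and 0.413%, 0.480%, 0.338% and 0.386% in WT 1 to 4. The WT libraries lay on both sides of the KO libraries. Reads of the cytosolic class outnumbered those of the mitochondrial class 12.5, 11.5 and 11.3 to 1 in KO 1 to 3 and 13.7, 16.2, 13.7 and 11.9 to 1 in WT 1 to 4, and WT 4 was within the KO range.

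**Figure D1:**
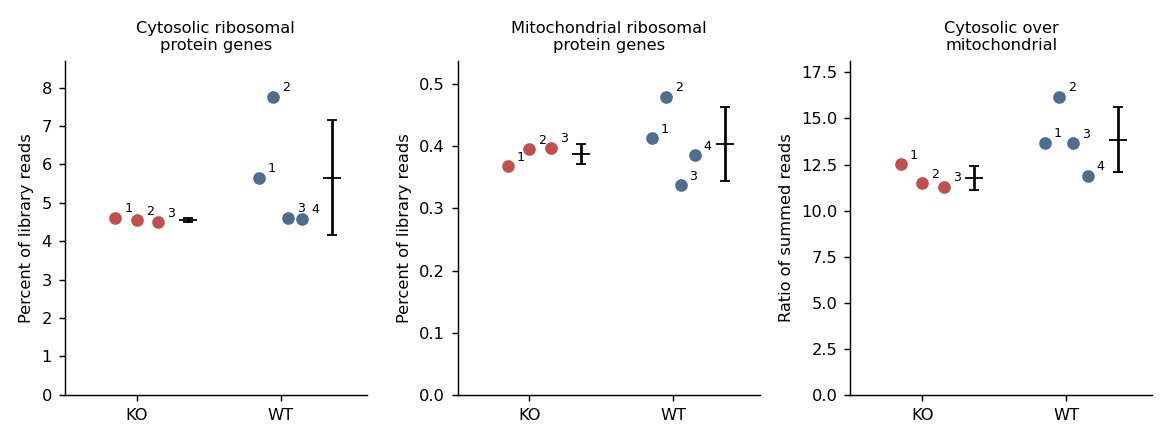
Share of library reads in cytosolic (left) and mitochondrial (middle) ribosomal protein genes, in percent, and the ratio of their summed reads (right), with 1 point per library numbered as in the labels and bars for mean ± SD (3 KO, 4 WT). WT 2 is the highest library in all 3 panels (7.76%, 0.480% and 16.2), and WT 4 lies within the KO range in each panel.

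The question of the comparison is which transcripts differ in Treg cells that lack Hpgd. Each gene was tested with limma on log2(normalized count + 1), KO over WT, among genes with a mean of at least 10 normalized counts, with Benjamini-Hochberg adjustment. In all, 0 of 11787 genes (0%) had an adjusted p below 0.05, and limma's voom on the recovered reads also called 0. An unadjusted p under 0.05 was reached by 211 genes with limma and by 184 with voom. No ribosomal protein gene changed by this test, since the adjusted p was 1.00 for each of the 159 tested members. Hpgd itself was low in all libraries, fell below the filter and was not tested. Rpl32l and Rps4l, processed pseudogenes by GENCODE, fell below the filter too. Rpl32l had 4.55, 4.04 and 0 normalized counts in KO 1 to 3 and 8.80, 3.62, 18.1 and 7.73 in WT 1 to 4. Rps4l had 9.11, 0.808 and 0 in KO 1 to 3 and 27.5, 16.3, 4.52 and 4.92 in WT 1 to 4.

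Estimates of the 2 classes lay differently around 0, although no single one passed. In the cytosolic class 79 of 81 tested genes had a lower estimate in KO, beside 48.2% of all tested genes, and the median log2 fold change was -0.32, beside 0.01 over all tested genes. In the mitochondrial class 52 of 78 had a lower estimate, with a median of -0.07. An unadjusted p under 0.05 with a lower estimate was reached by 13 cytosolic genes (16.0%) and by 1 mitochondrial gene, beside 1.01% of all genes. None reached it with a higher estimate, beside 0.781%. The groups did not overlap, with KO lower, for 13 cytosolic (16.0%) and 2 mitochondrial genes (2.56%), beside 1.93% of all genes, and did not overlap with KO higher for no member, beside 1.71%. Members share their libraries, so their estimates are not independent of each other.

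The lower cytosolic estimates rested in large part on WT 2. This library held the highest value of the 7 for 77 of 81 cytosolic genes and for 51 of 78 mitochondrial genes, beside 29.2% of all tested genes. Without WT 2 the cytosolic median was -0.14 with 61 of 81 estimates lower, beside 49.3% of all genes. The mitochondrial median then turned to 0.07, with 25 of 78 lower. The groups then did not overlap for 13 cytosolic genes with KO lower and 1 with KO higher, beside 3.75% and 4.07% of all genes. An unadjusted p under 0.05 (limma) then went with a lower estimate for 8 cytosolic genes and 1 mitochondrial gene, beside 132 of all 11787. It went with a higher estimate for 1 mitochondrial gene, beside 158 of all. At the other end, WT 3 held the lowest value for 36 mitochondrial and 23 cytosolic genes, KO 2 for 26 and KO 1 for 20 cytosolic genes. The mitochondrial median was -0.15 without WT 3, -0.04 without KO 1 and -0.10 without KO 3, and none of these removals moved the cytosolic median by over 1.5 times.

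Of the marker lists of other cell types, only the erythroid one was without overlap between the groups, and WT 2 held no constant place. The 4 erythroid markers in the table summed to between 62.2 and 199 normalized counts in KO and between 491 and 2033 in WT, without overlap and with WT 2 highest. The 3 B cell markers ranged from 327 to 433 in KO and from 320 to 751 in WT, and the 2 epithelial markers from 263 to 351 in KO and from 306 to 587 in WT. Myeloid markers (6 genes) ranged from 641 to 1666 in KO and from 210 to 1523 in WT, CD8 T and NK cell markers (5 genes) from 68.0 to 160 in KO and from 110 to 206 in WT, and plasma cell markers (4 genes) from 1506 to 2348 in KO and from 1483 to 2129 in WT. WT 2 was the highest WT library in each of these lists, but a KO library was higher still for the myeloid and the plasma cell markers. It was the lowest WT library for dendritic cell markers (5 genes, 195 to 254 in KO and 136 to 273 in WT) and neutrophil markers (4 genes, 21.8 to 628 in KO and 35.3 to 139 in WT), and lay inside the WT range for 3 stromal and endothelial markers (303 to 419 in KO and 241 to 461 in WT). The defining markers Pax5, Ly6g, Pdgfrb, Cdh5, Krt8 and Krt19 have no row in the table. The part of these cells in the ribosomal protein values was not tested.

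**Figure D2:**
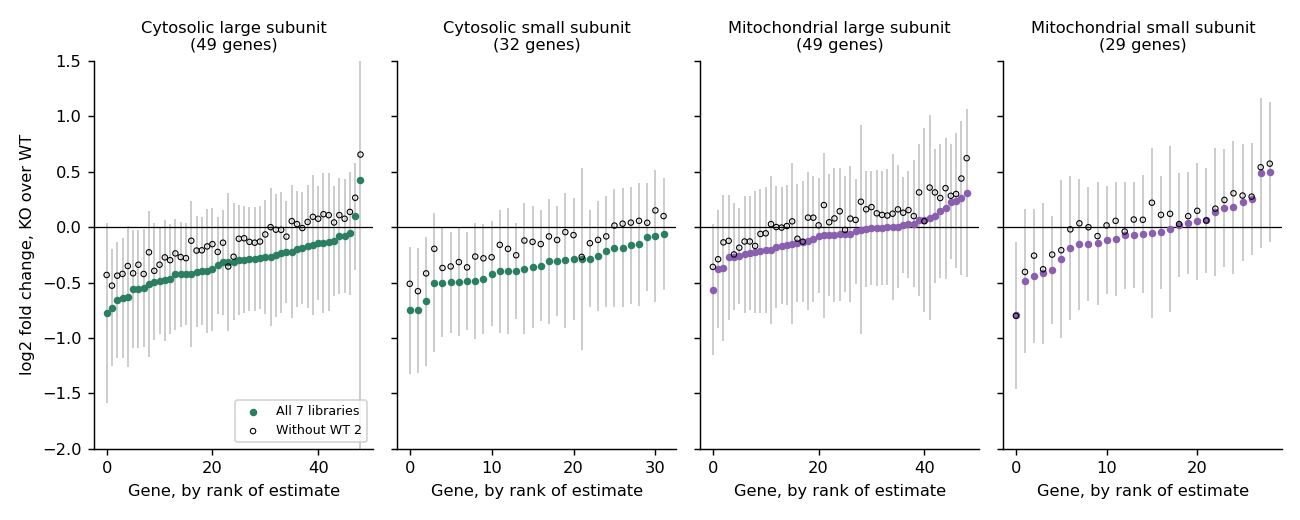
log2 fold change, KO over WT, of the 159 tested members in the 4 classes, ordered by estimate, with filled points and 95% intervals for all 7 libraries and open circles for the fit without WT 2. Cytosolic points lie below 0 for 79 of 81 genes and most open circles lie nearer to 0, and the interval of Rpl39l (-2.33 to 3.18) runs beyond the axis.

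Large and small subunits had similar estimates within each class. Of the cytosolic genes, 47 of 49 large subunit genes (median -0.31) and 32 of 32 small subunit genes (median -0.35) had lower estimates. The mitochondrial medians were -0.06 with 34 of 49 lower for the large and -0.07 with 18 of 29 lower for the small subunit. Without WT 2 the cytosolic medians were -0.14 with 36 of 49 lower for the large and -0.15 with 25 of 32 lower for the small subunit. The mitochondrial medians then changed sign, to 0.08 with 15 of 49 lower for the large and 0.06 with 10 of 29 lower for the small subunit. The mean log2 level of the cytosolic large subunit genes minus that of the small subunit genes was -0.75, -0.67 and -0.73 in KO 1 to 3 and -0.68, -0.74, -0.75 and -0.84 in WT 1 to 4. This overlapped, with a difference of 0.03 between the groups. The same quantity for the mitochondrial subunits was 0.16, 0.13 and 0.05 in KO 1 to 3 and 0.13, 0.25, 0.01 and 0.09 in WT 1 to 4, with a difference of -0.01, or 0.04 without WT 2. Between the classes, the mean log2 level of cytosolic minus mitochondrial genes was 3.11, 3.01 and 3.19 in KO 1 to 3 and 3.38, 3.56, 3.42 and 3.13 in WT 1 to 4. The group means differed by -0.27, or by -0.21 without WT 2, and WT 4 lay within the KO range both times.

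The stalk of the large subunit, which recruits the elongation factors, held both estimates near 0 and estimates far below it. It consists of Rplp0, the anchor, and the small acidic proteins Rplp1 and Rplp2. Rplp0 had 15067, 13913 and 11953 normalized counts in KO 1 to 3 and 15155, 24846, 10215 and 12929 in WT 1 to 4. Rplp1 had 4230, 3429 and 3801 in KO 1 to 3 and 5540, 8752, 4593 and 4389 in WT 1 to 4. Rplp2 had 1818, 1465 and 1971 in KO 1 to 3 and 2932, 4334, 2619 and 2052 in WT 1 to 4. KO and WT overlapped for Rplp0 and did not overlap for Rplp1 and Rplp2. The log2 fold change was -0.14 (SE 0.29) for Rplp0, -0.55 (SE 0.25, unadjusted p = 0.042) for Rplp1 and -0.73 (SE 0.24, unadjusted p = 0.011) for Rplp2, with limma, and none passed the adjustment. Without WT 2 the values were 0.11, -0.34 and -0.53.

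Within a library, Rplp1 stood at 28.1%, 24.6% and 31.8% of the Rplp0 level in KO 1 to 3 and at 36.6%, 35.2%, 45.0% and 33.9% in WT 1 to 4. All 3 KO values lay below all 4 WT values. Rplp2 stood at 12.1%, 10.5% and 16.5% of Rplp0 in KO 1 to 3 and at 19.3%, 17.4%, 25.6% and 15.9% in WT 1 to 4, and KO 3 lay above WT 4. In both ratios WT 2 was not the highest library, WT 3 was. Both ratios come from the same counts as the estimates of the stalk genes and add no support to them.

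Among the other large subunit genes, Rpl4, an abundant and long protein that lines the exit tunnel, had 12583, 12982 and 12379 normalized counts in KO 1 to 3 and 13627, 18576, 10392 and 12202 in WT 1 to 4. Its groups overlapped, and its estimate was -0.08 (SE 0.24) with all libraries and 0.08 without WT 2. Rpl37, a small zinc-binding protein, had 1126, 1150 and 1407 in KO 1 to 3 and 1724, 3036, 1768 and 1487 in WT 1 to 4, with no overlap. Its log2 fold change was -0.66 (SE 0.24), and -0.44 without WT 2. Rpl37a, Rpl31, Rplp1 and Rplp2 were the other large subunit genes without overlap.

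In the small subunit, Rps29, a zinc-binding protein of the head, had 2613, 2328 and 2834 normalized counts in KO 1 to 3 and 4259, 7119, 4076 and 2876 in WT 1 to 4. The highest KO and the lowest WT library were close, but the groups did not overlap. Rps21 had 855, 629 and 1170 in KO 1 to 3 and 1330, 2057, 1474 and 1068 in WT 1 to 4, with KO 3 above WT 4. The log2 fold change was -0.75 for both (SE 0.26 each), and -0.51 for Rps29 and -0.58 for Rps21 without WT 2. The most abundant members were Rps27, Rps19, which is mutated in Diamond-Blackfan anaemia, and Rps14. Their estimates were -0.40, -0.37 and -0.31, and -0.20, -0.12 and -0.08 without WT 2. Rps6, the substrate of S6 kinase, had an estimate of -0.26 (SE 0.23), and -0.12 without WT 2. Groups without overlap were seen for 8 genes, among them Rps7, Rps10, Rps13, Rps15a, Rps25, Rps28 and Rps29.

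The median estimate was lowest in the cytosolic members with short coding sequences, although the lowest single estimate belonged to Rpl10, of 642 coding bases, and the highest to Rpl39l, of 153. The split by coding length was chosen after the values had been seen. The 27 members with coding sequences of 75 to 396 bases had a median log2 fold change of -0.48, the 27 with 399 to 564 bases one of -0.36, and the 27 with 576 to 1257 bases one of -0.19. Without WT 2 the 3 medians were -0.28, -0.14 and 0.03, with 25, 24 and 12 lower estimates. Spearman's rho between coding length and log2 fold change was 0.67 over the 81 genes, and 0.63 without WT 2, as a description over genes that share the same libraries. The relation by whole transcript length was looser. Medians were -0.41 for 26 genes under 600 bases and -0.27 for 35 genes from 600 to 999 bases. They were -0.23 for 16 genes from 1000 to 1999 bases and -0.39 for the 4 longer ones. Without WT 2 the medians, in the same order, were -0.26, -0.12, -0.03 and -0.30.

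The short members also made up a smaller part of the cytosolic class itself in KO. Of the cytosolic ribosomal protein reads, the 27 shortest members took 20.9%, 19.4% and 21.9% in KO 1 to 3 and 23.5%, 23.8%, 25.0% and 22.6% in WT 1 to 4. All KO libraries lay below all WT libraries, and the means differed by -2.98 percentage points with WT 2 and by -2.96 without it. Rps29 alone took 0.7863%, 0.7112% and 0.8292% in KO 1 to 3 and 1.05%, 1.15%, 1.28% and 0.841% in WT 1 to 4. Rplp2 alone took 0.547%, 0.448% and 0.577% in KO 1 to 3 and 0.723%, 0.701%, 0.819% and 0.600% in WT 1 to 4. Both genes are among those with the smallest p-values, so their shares describe them and add no support to the share of the short members. That share in turn comes from the same counts as the estimates, split by length after these had been seen. It restates the relation with coding length and adds no support to it.

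**Figure D3:**
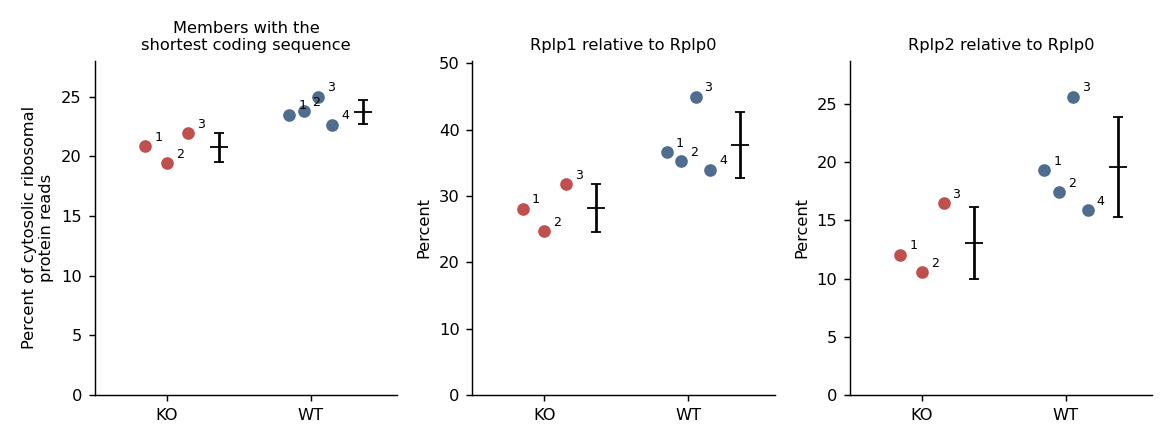
Share of cytosolic ribosomal protein reads held by the 27 members with the shortest coding sequences (left) and the levels of Rplp1 (middle) and Rplp2 (right) relative to Rplp0, all in percent, with 1 numbered point per library and bars for mean ± SD (3 KO, 4 WT). The KO libraries lie below the WT libraries in the left panel (19.4% to 21.9% against 22.6% to 25.0%) and the middle panel, and KO 3 overlaps WT 4 in the right panel.

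The estimates of the mitochondrial class hardly followed coding length. Its medians were -0.07, -0.07 and -0.03 in 26 genes each, in order of coding length, and rho was 0.06 over 78 genes. Without WT 2 the medians of this class changed sign, to 0.07, 0.07 and 0.06, and rho was 0.0081. Among tested genes of neither class, the median was -0.12 for 518 genes with coding sequences of up to 399 bases, -0.05 for 801 genes of 400 to 599 bases, 0.00 for 2224 genes of 600 to 999 bases, 0.02 for 4209 genes of 1000 to 1999 bases and 0.06 for 3129 longer genes. Without WT 2 these medians were -0.03, 0.03, 0.03, 0.02 and -0.02. By whole transcript, 168 other genes under 600 bases had a median of -0.25, and -0.16 without WT 2, when 70.8% of them had lower estimates. The median was -0.10 for 567 other genes of 600 to 999 bases and -0.03 for 2537 of 1000 to 1999 bases. It was 0.04 for 7897 longer ones. Without WT 2 the medians from 600 bases upwards were 0.00, 0.04 and 0.00. Spearman's rho with coding length over 10881 other genes was 0.11, and -0.05 without WT 2, so by coding length their trend was not seen without that library. The part of length in the cytosolic values was not tested.

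**Figure D4:**
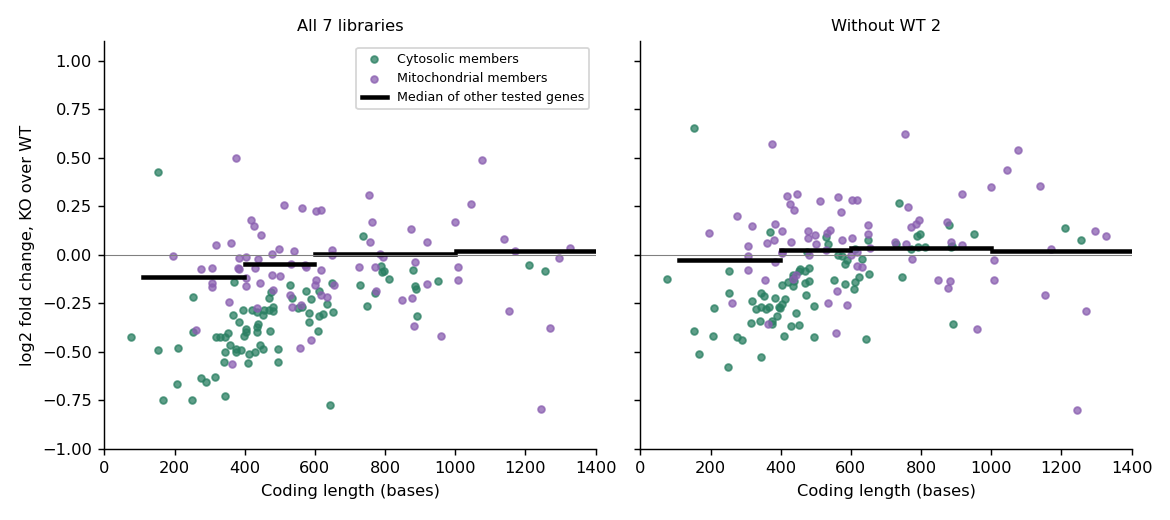
log2 fold change, KO over WT, of each tested member against its coding length in bases, with all 7 libraries (left) and without WT 2 (right), and black lines for the median of other tested genes in bins of coding length. Cytosolic members lie lower towards the left in both panels, and the line of the other genes lies at -0.12 at the left end in one panel and at -0.03 in the other.

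WT 2 was above the mean of the other 6 libraries by a median log2 of 0.87, 0.82 and 0.82 in the cytosolic members from short to long coding sequences, and by 0.52, 0.51 and 0.45 in the mitochondrial ones. In the other genes the same difference was 0.44 at up to 399 coding bases, 0.36 at 400 to 599 and 0.19 at 600 to 999. It was 0.08 at 1000 to 1999 bases and -0.23 at 2000 bases or more. The cytosolic members reach only to 1257 coding bases, and the part of length in the WT 2 values was not tested.

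Among paralogues of cytosolic proteins, every ratio within a pair overlapped between KO and WT. Rpl7l1, a paralogue of Rpl7, stood at 9.76%, 9.76% and 9.33% of Rpl7 in KO 1 to 3 and at 8.16%, 8.31%, 9.74% and 7.04% in WT 1 to 4, with WT 3 inside the KO range. Its own estimate was 0.10 (SE 0.22), and that of Rpl7 -0.12 (SE 0.23), and these were 0.27 and 0.04 without WT 2. Rpl22, needed in mice for the development of alpha-beta T cells, had an estimate of -0.35 (SE 0.20), and of -0.22 without WT 2. Its paralogue Rpl22l1 had one of -0.31 (SE 0.24). Rpl22l1 stood at 42.9%, 65.9% and 72.0% of Rpl22 in KO 1 to 3 and at 53.5%, 48.9%, 61.6% and 67.7% in WT 1 to 4, a wide overlap. Rps27l, a p53 target, stood at 6.42%, 6.68% and 7.75% of Rps27 in KO 1 to 3 and at 4.87%, 5.32%, 6.46% and 8.36% in WT 1 to 4, which overlapped as well.

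Rpl39l had at most 30.8 normalized counts in any library and an estimate of 0.43 with an SE of 1.27, or 0.65 without WT 2, beside -0.49 (SE 0.24) for Rpl39. Rpl3 and Rps4x had estimates of -0.05 and -0.06 (SE 0.26 and 0.23), and both turned positive without WT 2 (0.14 and 0.10). Rpl10, on X, had the lowest cytosolic estimate at -0.77, with an SE of 0.37. Without WT 2 it was -0.43, above those of Rps21, Rplp2 and Rps29. Its levels were 1151, 803 and 594 in KO 1 to 3 and 1705, 2861, 855 and 925 in WT 1 to 4, so KO 1 lay above WT 3 and WT 4. Ribosomal protein genes have many processed pseudogenes, and the sources used here do not say how reads shared with such copies were counted.

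**Figure D5:**
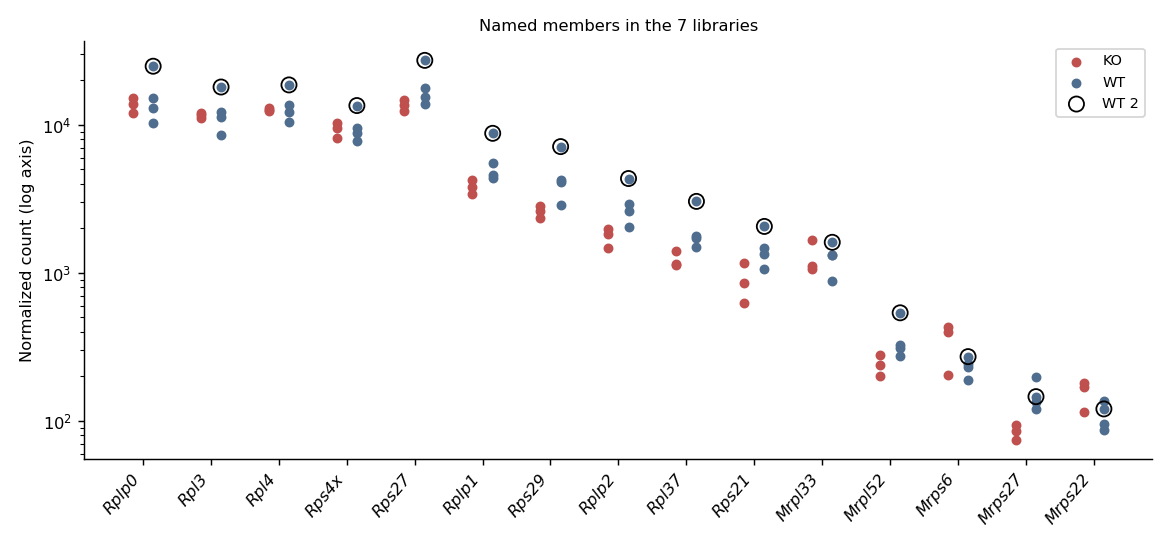
Normalized counts (log axis) of 15 named members in the 3 KO and 4 WT libraries, with WT 2 circled. KO points lie below all WT points for Rplp1, Rps29, Rplp2, Rpl37 and Mrps27, and WT 2 is the highest point for every cytosolic gene shown and not for Mrps27.

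In the mitochondrial class, Mrps27, a small subunit protein with pentatricopeptide repeats, had the lowest estimate. It had 74.4, 85.6 and 93.8 normalized counts in KO 1 to 3 and 121, 146, 198 and 134 in WT 1 to 4, with no overlap and with WT 3, not WT 2, the highest. Its log2 fold change was -0.80 (SE 0.31, unadjusted p = 0.023 with limma) and -0.80 without WT 2, and it did not pass the adjustment. Mrpl32 was the other mitochondrial gene without overlap, with 467, 452 and 427 in KO 1 to 3 and 490, 626, 495 and 547 in WT 1 to 4. Its estimate was smaller, at -0.26 (SE 0.20).

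At the other end, Mrps6 had 204, 400 and 428 normalized counts in KO 1 to 3 and 189, 272, 242 and 231 in WT 1 to 4, so KO 2 and KO 3 lay above all WT libraries and KO 1 did not. Its estimate was 0.50 (SE 0.29), and that of Mrps22 was 0.49 (SE 0.31). In the large subunit the smallest p-values went to Mrpl52 (-0.56, SE 0.27) and Mrpl37 (-0.38, SE 0.25) among lower estimates and to Mrpl40 (0.23, SE 0.24) and Mrpl16 (0.31, SE 0.35) among higher ones. Without WT 2 the estimates were -0.36 for Mrpl52 and 0.62 for Mrpl16.

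The most abundant mitochondrial members did not differ beyond their spread. Mrpl33 had 1066, 1107 and 1653 normalized counts in KO 1 to 3 and 1316, 1607, 887 and 1329 in WT 1 to 4, with an estimate of -0.01 (SE 0.24). Mrpl24 and Mrpl42 had estimates of 0.02 and 0.15, and Mrps14, Mrps33 and Mrps21 of -0.07, 0.05 and -0.39. Without WT 2 these were 0.11 for Mrpl33, 0.15 for Mrpl24, 0.26 for Mrpl42, -0.04 for Mrps14, 0.15 for Mrps33 and -0.25 for Mrps21. All of these groups overlapped.

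Genes around the ribosome were followed in 6 lists, and none of their genes passed the adjustment. Ribosomal proteins that carry other symbols lay with the cytosolic class, with 4 of 4 lower estimates and a median of -0.47, and with 3 of 4 and -0.27 without WT 2. Among them Fau, which is made as a fusion of a ubiquitin-like protein with a small subunit protein, had an estimate of -0.69 (SE 0.27) and Rpl36al one of -0.42 (SE 0.21). Without WT 2 the Fau estimate was -0.46. Fau had 1167, 1062 and 728 normalized counts in KO 1 to 3 and 1535, 2510, 1368 and 1120 in WT 1 to 4, so KO 1 lay above WT 4. The 5 mitochondrial ribosomal proteins with other symbols all had lower estimates, at a median of -0.14, and 3 of 5 did without WT 2, at -0.12. Gadd45gip1 had -0.37 and Ptcd3 -0.21 (SE 0.24 and 0.25), and Ptcd3 had -0.32 without WT 2.

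RNA polymerase I and ribosome biogenesis genes were balanced over all libraries, with 36 of 71 lower and a median of 0.00. Without WT 2, 24 of 71 were lower and the median was 0.08. Polr1b, a core subunit of that polymerase, had -0.63 (SE 0.31), and Wdr12, a factor of large subunit maturation, had 0.43 (SE 0.23). Mitochondrial translation and ribosome assembly genes had 14 of 29 lower estimates and a median of 0.02, and 15 of 29 and -0.04 without WT 2. In this list Gfm1, the mitochondrial elongation factor that moves the ribosome along, had 253, 315 and 482 normalized counts in KO 1 to 3 and 171, 176, 179 and 259 in WT 1 to 4. Its log2 fold change was 0.80 (SE 0.28), with KO 1 just below WT 4. Eral1, a chaperone of the small mitochondrial rRNA, had -0.47 (SE 0.30) with no overlap between the groups.

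Elongation factors and other transcripts that also start with a pyrimidine run had 11 of 14 lower estimates, but a median of -0.04. Without WT 2, 2 of 14 were lower and the median was 0.07. In this list Eef1d and Btf3 had -0.21 and -0.13 (SE 0.22 and 0.20), and -0.07 and 0.0060 without WT 2. The regulators, among them mTOR, Larp1 and Myc, had 10 of 13 lower estimates and a median of -0.10, and 9 of 13 and -0.21 without WT 2. Of these, Tsc2, an inhibitor of mTORC1, had -0.41 (SE 0.28), and Rptor, a subunit of mTORC1, had -0.36 (SE 0.27).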

How the data were processed

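SmartSeq2 libraries were made from 10 ng of total RNA and sequenced on a NextSeq 500, per the labels' protocols. Tools listed in the submitters' processing notes are kallisto 0.44, CASAVA 1.8, Partek 6.6, DESeq2 and R 3.3.1, with the build mm10, in no stated role. The deposited values are a normalized signal per gene with an offset of 1, and after subtracting it, 100% of values equalled whole reads times a step per library (within 0.01 read), so reads could be recovered. Normalized counts are the deposited signal minus 1. Intervals cover the spread between libraries, and reads without molecular identifiers are not independent molecules.

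Fits used limma 3.58.1 in R 4.3.3 (trended prior, all 7 libraries, no covariate) on genes with a mean of at least 10. A gene was named if it was among the 3 most abundant or the 2 smallest p-values per direction in its class, a stalk or paralogue gene, Rps6, among the 2 smallest p-values of a list, Hpgd, or below the filter. Rpl31, Rpl36a, Rpl37a, Mrpl32 and the small subunit genes without overlap were added after their values were seen. Members and lists were chosen with earlier results of these data known. Some named genes and markers are not reported here. The fit was tested on simulated data. No 2 libraries agreed within sampling noise (smallest chi-square per degree of freedom 17.2). Transcript lengths and biotypes come from GENCODE M21 (15019 of 15815 symbols matched), with 1 representative transcript per gene. Alternatives were other pseudocounts, filters, scalings, priors, library weights, voom, a block for the replicate number, and fits without single libraries.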

Additional observations from a re-analysis of the deposited data

Results flagged for a closer look

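In 2 named members, 1 WT library lay far from the other 3. Mrpl40 had 327 normalized counts in WT 3, while the nearest other WT library had 539. Rpl22 had 2209 normalized counts in WT 2, while the nearest had 1598. In 45 groups tested, chance alone flags about 1 in 20.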

How the results depend on the processing

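Every limma alternative called 0 members. Over all genes the count of calls was 0, except 4 with library weights, 3 with the replicate block and 4 without both WT 2 and KO 3. The block joins libraries that share only a number (correlation of their deviations 0.01, -0.04 and 0.09). No KO library shares the number of WT 4, so under the block WT 4 adds nothing to the difference between KO and WT. The cytosolic and mitochondrial medians were -0.40 and -0.07 under the block, the same as in the fit without WT 4. The cytosolic median ran from -0.44 to -0.14 when libraries were left out in turn, and the count of lower estimates from 61 to 81. The mitochondrial median ran from -0.15 to 0.07, and the lower count from 25 to 66, and it was 34 without both WT 2 and KO 3. The edgeR test was not run, since the deposited values are a normalized signal, and voom on the recovered reads took its place.

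Some named genes with estimates smaller than their SE changed sign, and the cause was not tested. Among them were Rpl39l at 0.43 (SE 1.27) and Ptcd3 at -0.21 (SE 0.25), which were not near 0. With library weights, log2 fold changes were 0.040 for Rplp0, 0.014 for Rpl4, -0.029 for Mrpl24, -0.027 for Mrpl42, 0.038 for Rpl3 and 0.0086 for Rps4x. Under the replicate block, they were -0.0034 for Rpl7l1, -0.53 for Rpl39l, 0.019 for Mrpl33 and -0.0082 for Mrpl24. Without both WT 2 and KO 3, they were 0.20 for Rplp0, 0.091 for Rpl4, -0.024 for Mrpl24, -0.039 for Mrps33, 0.13 for Rpl3 and 0.028 for Rps4x. Leaving out libraries in turn gave -0.22 to 0.0060 for Btf3, -0.15 to 0.15 for Mrpl24, -0.21 to 0.11 for Mrpl33, -0.091 to 0.32 for Mrpl42, -0.30 to 0.092 for Mrps14, -0.13 to 0.29 for Mrps33, -0.35 to 0.013 for Ptcd3, -0.22 to 0.14 for Rpl3, -0.53 to 1.41 for Rpl39l, -0.20 to 0.076 for Rpl4, -0.24 to 0.042 for Rpl7, -0.0034 to 0.27 for Rpl7l1, -0.32 to 0.11 for Rplp0 and -0.17 to 0.099 for Rps4x. KO 3 had the fewest reads, and its part in the precision of low members was not tested.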
